A study of Homo sapiens with 8 samples.

Results

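Aminoacyl-tRNA synthetases are the enzymes that load each amino acid onto its own tRNA, and every codon that a ribosome reads depends on one of them. Human cells hold one set in the cytosol and another, also encoded in the nucleus, that is imported into mitochondria and serves the few proteins made there. The genes were chosen by symbol, 21 for cytosolic and 16 for mitochondrial enzymes, which makes 37 of the 19964 genes with a coding transcript in the deposited counts. All 37 passed the minimum of a mean of 10 reads in each assay, as did 9570 genes of the series.

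HEK293T, a human embryonic kidney cell line that carries the SV40 large T antigen, was given vehicle (control) or 40 µM sodium arsenite for 30 min. Arsenite causes oxidative stress and leads to phosphorylation of the initiation factor eIF2, which lowers translation of most mRNAs. Each treatment was profiled by ribo-seq, which sequences the stretches of mRNA shielded by ribosomes from digestion, and by mRNA-seq of randomly fragmented mRNA from the same lysates. Both assays were made in 2 replicates, which the methods describe as independent, so that there were 8 libraries of 1 cell line. Replicate 1 was much the shallower, and the ribo-seq libraries held from 1016863 to 7197536 reads on the coding sequences (CDS) used. The mRNA-seq libraries held from 3993271 to 21724935 reads on the same transcripts. Of 8 genes that HEK293T cells are known to express, 8 had reads in all mRNA-seq libraries, and they summed to between 1900 and 15892 reads per library. The lowest of them, PAX2, had 6 and 15 reads in replicate 1 (control, then arsenite). The 4 markers of blood, liver and heart summed to between 3 and 19 reads per library. PTPRC, 1 of these 4, also had reads in all mRNA-seq libraries.

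The measures followed were these. The RNA change compares mRNA-seq reads in arsenite with control, the ribosome occupancy change compares ribo-seq reads on the CDS, and the change in translation efficiency (TE) is the difference between them. All are log2 values relative to the bulk of mRNAs, so the global loss of translation in arsenite is not part of them. A gene was called at an adjusted p under 0.05 from the quasi-likelihood test of edgeR, adjusted by Benjamini-Hochberg over all genes tested, with the replicate as a block. A standard error (SE) follows a log2 value where it is given.

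The synthetases differ in build, and the results are given with these groups in mind. Class I and class II enzymes have unrelated catalytic folds. EPRS joins a glutamyl and a prolyl enzyme in 1 chain and FARSA and FARSB are the subunits of 1 phenylalanyl enzyme. GARS and KARS each make both the cytosolic and the mitochondrial form from 1 gene, and they were counted as cytosolic. EPRS, IARS, LARS, MARS, QARS, RARS, KARS and DARS sit in the multi-synthetase complex. Many cytosolic synthetase genes are known from general knowledge, not from these libraries, as targets of ATF4, the transcription factor made when eIF2 is phosphorylated, which binds with partners of the C/EBP family to a DNA element with the core TGATGNAA, where N is any base.

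This core was searched on both strands in RefSeq promoters of build GRCh38.p14, which run from 250 bases before to 50 bases after the annotated start. The search was made after the RNA changes were known. A promoter was given for 30 of the 37 genes, and the exceptions were DARS, LARS, VARS, YARS, TARSL2, AARS2 and VARS2. The core was found in 7 of 16 cytosolic genes and in 1 of 14 mitochondrial genes, against 4.46% of 27305 genes with a promoter. All 7 belong to the 10 known ATF4 targets with a promoter, and none of the 6 other cytosolic genes with a promoter held it. The list of targets came from general knowledge, and whether it is independent of this element was not tested. The 8 matches are shown because they mark which synthetase promoters carry the element, with 9 bases on either side and the core in capitals, 5′ to 3′ on the strand that holds it.
AARS: taacttggcTGATGCAActgcgagaa
CARS: cctagaatcTGATGCAAccgccgccc
GARS: ctcggagcaTGATGAAAtcgccgcgt
IARS: gcacggaggTGATGCAAcgcgctgaa
MARS: atccctcgcTGATGCAAccggaaccg
NARS: tacgctctcTGATGCAAcgccggaat
TARS: tggaccagcTGATGCAAtcgaaaggc
YARS2: ccacactgcTGATGGAAaaattaagt

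The windows lie at chr16:70289677-70289702 for AARS, chr11:3057409-3057434 for CARS and chr9:92293694-92293719 for IARS, all on the plus strand. Those on the minus strand are chr7:30594836-30594861 for GARS, chr12:57488055-57488080 for MARS, chr18:57621806-57621831 for NARS, chr5:33440958-33440983 for TARS and chr12:32756078-32756103 for YARS2. The first base of the core was 180 bases before the annotated start in AARS, 26 before it in GARS, 6 before it in IARS and 197 before it in YARS2. In CARS, MARS, NARS and TARS it was 5, 3, 14 and 9 bases after the start. CARS, GARS and TARS have 2 promoters each, and a gene was counted if any of its promoters held the core. Their positions refer to the start of the promoter that held it. With the free base fixed as C (TGATGCAA), 6 of 16 cytosolic and 0 of 14 mitochondrial promoters held the core, against 1.08% of all genes with a promoter. A match to these letters does not show that a factor was bound there.

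In control cells the mRNAs of most cytosolic synthetases had more ribo-seq reads for their mRNA-seq reads than the bulk of mRNAs had. TE in control was taken from CDS reads in both assays, so that the length of the CDS cancels and genes can be set side by side. The median log2 TE was 0.65 over the 21 cytosolic genes and 0.34 over the 16 mitochondrial ones, against 0.01 over all genes tested. In replicate 1 these medians were 0.66 and 0.29, and in replicate 2 they were 0.53 and 0.29. Of the cytosolic genes 19 had a log2 TE above 0 in the fit, as against 50.3% of all genes. In both replicates 18 were above 0, as against 36.8% of all genes. Among the mitochondrial genes 11 were above 0, 9 of them in both replicates. The test called 5 cytosolic genes higher and none lower, while 0 mitochondrial genes were called by edgeR (4 at an unadjusted p under 0.05) or by DESeq2. The background for this measure was 21.9% of genes called, and 8.33% called higher. VARS2 and RARS2 were called lower as well with upper-quartile scaling, which lowers the median of all genes to −0.06, and when a mean of 50 reads was required, where that median was 0.0049.

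AARS, the alanyl enzyme, had the highest TE in control. Its CDS had 838 and 4450 ribo-seq reads in replicates 1 and 2, against 738 and 2687 mRNA-seq reads. This gave a log2 TE of 1.34 (SE 0.306, adjusted p = 0.00937 by edgeR), 1.10 in replicate 1 and 1.57 in replicate 2, which is 2.53 times the bulk. VARS, the valyl enzyme, was at 1.23 (SE 0.293, adjusted p = 0.0113 by edgeR) and had the same value in both replicates. EPRS was at 1.11 (SE 0.312, adjusted p = 0.0239), NARS at 0.96 (SE 0.301, adjusted p = 0.0374) and TARS at 0.91 (SE 0.308, adjusted p = 0.0488), all by edgeR. NARS and TARS were no longer called when a mean of 50 reads was required, with adjusted p-values of 0.0605 and 0.0750. TARS also lost its call where transcripts were chosen by mRNA-seq reads (adjusted p = 0.0526 by edgeR). FARSA, at 0.92, just missed the threshold (adjusted p = 0.0509 by edgeR). Its partner subunit FARSB was at 0.28 (SE 0.300), and the replicates of the pair did not keep 1 order, since FARSA was at 0.53 and 1.30 and FARSB at 0.56 and 0.01.

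**Figure D1:**
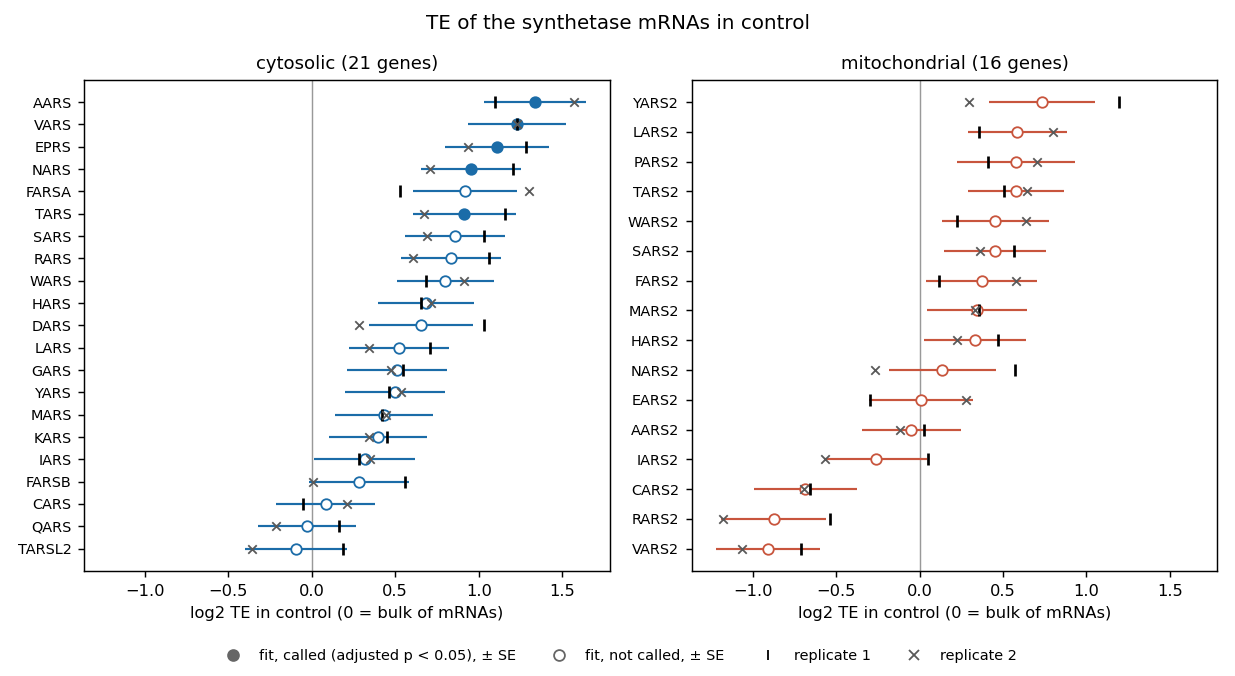
Log2 TE in control for each synthetase gene, sorted within each class, where 0 is the bulk of mRNAs. Circles are the fit over both replicates with its SE (filled where called), bars are replicate 1 and crosses replicate 2. Called genes are all cytosolic, from TARS at 0.91 to AARS at 1.34, and the lowest values are those of VARS2, RARS2 and CARS2.

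At the lower end stood 3 mitochondrial enzymes. VARS2 (valine) had 46 and 237 CDS footprints in the replicates against 143 and 889 mRNA-seq reads, a log2 TE of −0.91 (SE 0.311, adjusted p = 0.0518 by edgeR). RARS2 (arginine) was at −0.88 (SE 0.314, adjusted p = 0.0606) and CARS2 (cysteine) at −0.68 (SE 0.307, adjusted p = 0.125), both by edgeR. All 3 were below 0 in both replicates, yet none passed the threshold. The highest mitochondrial values were those of YARS2 at 0.73, LARS2 at 0.59 and PARS2 at 0.58, and none of these was called either. The lowest cytosolic values were near 0, with TARSL2 at −0.09, QARS at −0.03 and CARS at 0.08. TARSL2, a paralog of TARS, was at 0.19 and −0.36 in the replicates, which is on both sides of the bulk.

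Set against its mitochondrial counterpart for the same amino acid, the cytosolic mRNA had the higher TE in control in 14 of 18 pairs, and in all 14 in both replicates. The mitochondrial mRNA was higher in both replicates in 1 pair, TARS2 over TARSL2. The median difference over the pairs was 0.47. It was widest for valine, at 2.14, and for arginine, at 1.71. In arsenite the cytosolic mRNA was higher in 12 pairs, 9 of them in both replicates, with a median difference of 0.38. Genes recur in the pairs (EPRS, TARS2 and FARS2 in 2 each), so the pairs are not independent.

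After 30 min of arsenite the log2 RNA change of all 21 cytosolic genes was at or slightly above 0, the value of the bulk. Under upper-quartile scaling 20 of 21 changes were above 0 (KARS at −0.0024). With DESeq2 or without the block likewise 20 were above 0, and TARSL2 was below it. The median log2 RNA change was 0.10 in the fit, 0.13 in replicate 1 and 0.10 in replicate 2, against −0.01 over all genes. Positive values in both replicates were found for 18 of them and negative values in both for none. Of all genes 47.8% had a positive value in the fit and 30.0% had one in both replicates. The test called 6 cytosolic genes, all higher. The background was 5.75% of genes called, and 3.75% called higher. The 16 mitochondrial genes had a median of 0.01, with 4 positive and 2 negative in both replicates, and 3 were called, 2 higher and 1 lower. The steps were small, and the largest rise among cytosolic genes was 1.22-fold.

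MARS, the methionyl enzyme, stood at 225.6 and 239.6 cpm (reads scaled to the size of each library with TMM) in the control replicates and at 289.7 and 285.9 cpm with arsenite. The control and arsenite libraries did not overlap. Its log2 RNA change was 0.29 (SE 0.0523, adjusted p = 3.30e-06 by edgeR). AARS had 237 and 153 cpm in control and 284 and 183 in arsenite. Here the replicates lay further apart than the treatments, but the change within each was alike, 0.26 and 0.25, and the fit gave 0.26 (SE 0.0524, adjusted p = 0.000100 by edgeR). VARS rose by 0.20 (SE 0.0565, adjusted p = 0.0115) and WARS, the tryptophanyl enzyme, by 0.17 (SE 0.0532, adjusted p = 0.0371), both by edgeR. GARS rose by 0.16 (SE 0.0502, adjusted p = 0.0285) and TARS by 0.16 (SE 0.0510, adjusted p = 0.0337), again by edgeR. With DESeq2 AARS lost its call (adjusted p = 0.0613), as did GARS, TARS and WARS (adjusted p = 0.222, 0.232 and 0.381), and VARS had no adjusted p. GARS, TARS and WARS also lost theirs with upper-quartile scaling (adjusted p = 0.0534, 0.0632 and 0.0636 by edgeR). WARS was not called without the filter on low counts either (adjusted p = 0.0583 by edgeR). When only mRNA-seq reads on the CDS were counted, VARS, WARS, GARS and TARS lost their calls, with adjusted p-values from 0.127 to 0.325 by edgeR. MARS kept its call in every alternative that included the replicate block.

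**Figure D2:**
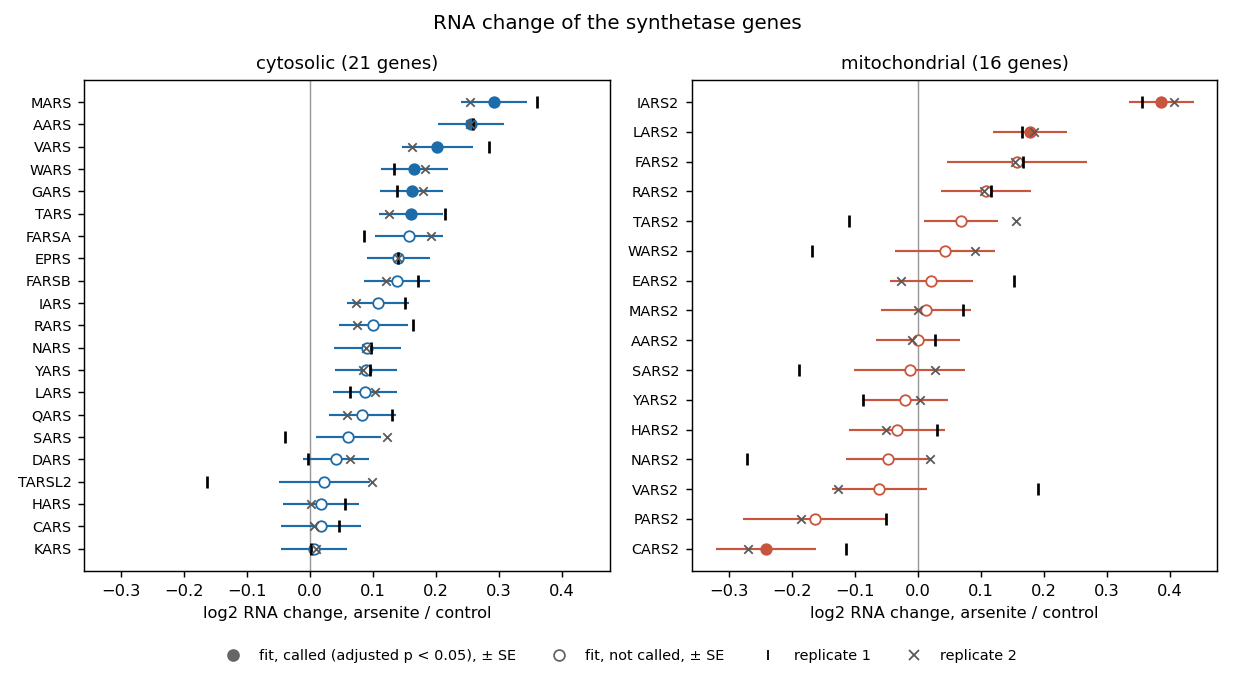
Log2 RNA change, arsenite over control, for each synthetase gene, sorted within each class. Circles are the fit with its SE (filled where called), bars are replicate 1 and crosses replicate 2. The 21 cytosolic genes lie between 0.01 and 0.29, and the mitochondrial genes between −0.24 and 0.39, with IARS2 apart at the top.

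Among the other cytosolic genes, KARS, CARS and HARS lay closest to the bulk, with values of 0.01, 0.02 and 0.02. The subunits FARSA and FARSB had like values, 0.16 and 0.14, and neither was called (adjusted p = 0.0582 and 0.0986 by edgeR). EPRS was at 0.14 (adjusted p = 0.0687 by edgeR) and had the same value in both replicates. The 12 known ATF4 targets had a median of 0.12 with 5 called, and the 9 other cytosolic genes a median of 0.08 with 1 called, VARS. Of the genes with a promoter, the 7 with the TGATGNAA core had a median of 0.16 and 4 calls, and the 9 without it a median of 0.10 and 1 call. Their ranges overlapped, from 0.02 to 0.29 with the core and from 0.01 to 0.17 without it. With TGATGCAA the medians were 0.13 and 0.12, so the difference in medians rested on GARS, which holds TGATGAAA. The calls were then 3 of 6 genes with the core and 2 of 10 without it. YARS2, the 1 mitochondrial gene with the core, was at −0.02.

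IARS2, the mitochondrial isoleucyl enzyme, had the largest RNA change of all 37 genes. It had 341 and 310.3 cpm in control and 436 and 412 in arsenite, with no overlap, and its log2 change was 0.39 (SE 0.0509, adjusted p = 1.37e-11 by edgeR), 0.36 and 0.41 in the replicates. This call, too, was kept in every alternative that included the block. LARS2, the leucyl enzyme, rose by 0.18 (SE 0.0584, adjusted p = 0.0423 by edgeR), and CARS2 fell by 0.24 (SE 0.0796, adjusted p = 0.0455 by edgeR). Both lost their calls without the filter on low counts (adjusted p = 0.0645 and 0.0583 by edgeR). They also lost them with mRNA-seq reads on the CDS only (adjusted p = 0.205 and 0.246 by edgeR). LARS2 was not called with upper-quartile scaling (adjusted p = 0.0689 by edgeR). CARS2 was not called where transcripts were chosen by mRNA-seq reads (adjusted p = 0.0553 by edgeR). DESeq2 gave no adjusted p for either. CARS2 differed between the replicates, at −0.11 and −0.27. FARS2 was at 0.16 (SE 0.111), PARS2 at −0.16 (SE 0.114) and VARS2 at −0.06 (SE 0.0749), and none of them was called. HARS and HARS2, whose annotated starts lie 85 bases apart on opposite strands, were at 0.02 and −0.03.

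Ribosome occupancy showed no common shift of either class. The median log2 change was 0.03 over the cytosolic and 0.02 over the mitochondrial genes, against −0.0033 over all genes. In replicate 1 the medians were 0.04 and −0.02, and in replicate 2 they were −0.05 and 0.13. In each class 1 gene was called, against a background of 2.79% of genes called, 1.44% higher and 1.35% lower. Both of them encode isoleucyl-tRNA synthetases, and they moved in opposite directions.

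IARS, the cytosolic isoleucyl enzyme, went from 1555 ribo-seq reads on the CDS to 530 with arsenite in replicate 1, and from 6150 to 1675 in replicate 2. In cpm this was 899 and 800.0 in control and 565 and 513 in arsenite, with no overlap, while the mRNA-seq values were 672 and 515 in control and 747 and 541 in arsenite. Occupancy fell by 0.65 on the log2 scale (SE 0.179), to 0.635 times its control value, with −0.67 and −0.64 in the replicates. Its adjusted p was 0.0498 by edgeR, which is close to the threshold. It was 0.119 with DESeq2, and 0.0525 where transcripts were chosen by mRNA-seq reads. IARS has 2 transcripts tied for the most reads and kept the same one under that choice, so its counts were as before and the transcripts of other genes differed.

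IARS2 went from 665 to 712 ribo-seq reads in replicate 1 and from 2001 to 1212 in replicate 2 (the arsenite libraries were the shallower ones). The cpm values were 384 and 260.3 in control and 758 and 372 in arsenite, so the treatments overlapped across replicates while each replicate rose. The log2 occupancy change was 0.74 (SE 0.185, adjusted p = 0.0328 by edgeR), 0.98 in replicate 1 and 0.51 in replicate 2. With DESeq2 the adjusted p was 0.0875. The RNA of IARS2 rose as well, by 0.39. Its log2 TE change was 0.35 (SE 0.179, adjusted p = 0.287 by edgeR) and was not called, with 0.62 in replicate 1 and 0.11 in replicate 2.

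**Figure D3:**
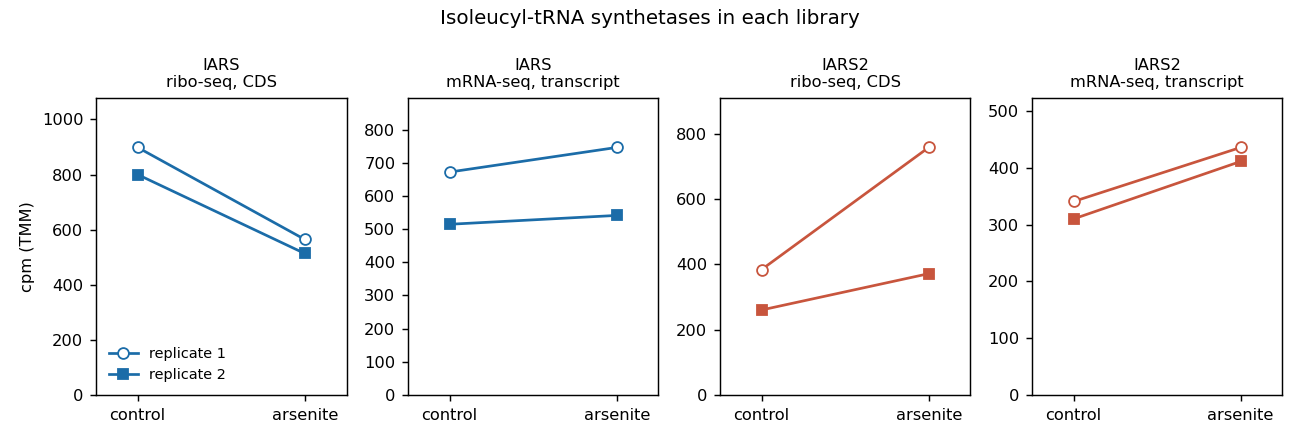
TMM-normalized cpm of IARS and IARS2 in each library, with a line for each replicate from control to arsenite (open circles replicate 1, filled squares replicate 2); each panel starts at 0 and has its own scale. Ribo-seq reads of IARS fell in both replicates while those of IARS2 rose. The mRNA-seq reads of both were higher in arsenite, with a log2 RNA change of 0.39 for IARS2 (called) and 0.11 for IARS (not called).

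The other extremes of occupancy were not called. Among cytosolic genes FARSB was at −0.40 and DARS, the aspartyl enzyme, at −0.34, while QARS (glutamine) was at 0.46, LARS (leucine) at 0.40 and CARS at 0.32. Among mitochondrial genes VARS2 was at −0.55, RARS2 at −0.15 and CARS2 at −0.09, with AARS2 at 0.54 and TARS2 at 0.44 at the upper end. The adjusted p-values of these 10 genes ranged from 0.167 to 0.900 (edgeR). QARS was higher in arsenite in both replicates, going from 273 and 215 cpm in control to 355 and 313 in arsenite. AARS2 was higher in replicate 2 only, with 58.0 and then 109 cpm, and was at 69.9 and 70.3 in replicate 1.

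TE change divides what happened to occupancy by what happened to the RNA. The cytosolic genes had a median of −0.13 and the mitochondrial genes one of 0.13, against −0.01 over all genes. These medians were −0.07 and −0.01 in replicate 1 and −0.18 and 0.10 in replicate 2, so the classes stood apart mainly in replicate 2. Of the cytosolic genes 11 were negative and 3 positive in both replicates, and of the mitochondrial genes 4 were negative and 6 positive in both. Over all genes tested 30.4% were positive in both. IARS alone was called, against a background of 2.12% of genes called. By amino acid, the mitochondrial mRNA had the higher TE change in both replicates in 9 of 18 pairs and the cytosolic one in 4.

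The TE of IARS fell by 0.77 on the log2 scale (SE 0.144, adjusted p = 0.0347 by edgeR), to 0.588 times its control value, with −0.82 in replicate 1 and −0.71 in replicate 2. It kept this call with DESeq2 and in every other alternative that included the block. The log2 TE of IARS was 0.32 in control and −0.50 in arsenite, the lowest value among the cytosolic genes. FARSB followed at −0.55 (SE 0.144, adjusted p = 0.0730 by edgeR), alike in both replicates at −0.56 and −0.54. It was called only without a filter on low counts (adjusted p = 0.0423). Its partner FARSA was at −0.13 (SE 0.148). MARS was at −0.40 (SE 0.150, adjusted p = 0.172 by edgeR), so its higher RNA level was not matched by more ribo-seq reads, which were 351 and 456 cpm in control and 315 and 443 in arsenite.

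**Figure D4:**
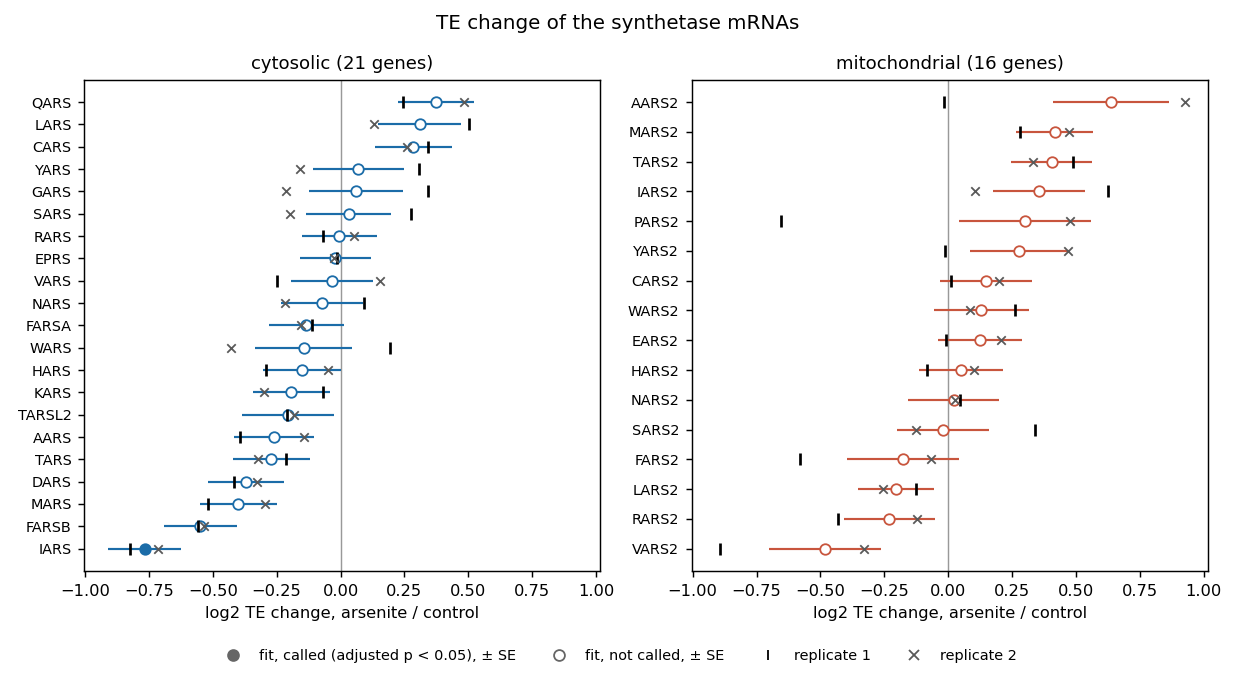
Log2 TE change, arsenite over control, for each synthetase gene, sorted within each class. Circles are the fit with its SE (filled where called), bars are replicate 1 and crosses replicate 2. IARS at −0.77 is the 1 called gene, and the replicates of AARS2 and PARS2 lie more than 0.9 apart.

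The highest TE changes were not called. They were 0.37 for QARS, 0.31 for LARS and 0.28 for CARS in the cytosol, and 0.64 for AARS2, 0.42 for MARS2 and 0.40 for TARS2 in mitochondria, with adjusted p-values from 0.153 to 0.308 (edgeR). The value of AARS2 came from replicate 2, where it was 0.92, as against −0.02 in replicate 1. MARS2 and TARS2 were positive in both. VARS2 had the lowest mitochondrial value, −0.48 (SE 0.219), before RARS2 at −0.23 and LARS2 at −0.20. In arsenite the log2 TE of VARS2 was −1.54 (SE 0.391, adjusted p = 0.00117) and that of RARS2 −1.21 (SE 0.366, adjusted p = 0.00827), both called lower than the bulk by edgeR. YARS2 was called higher there, at 0.94 (adjusted p = 0.0410 by edgeR), and so were AARS, EPRS and VARS, at 1.02, 1.04 and 1.15. When a mean of 50 reads was required, YARS2, AARS and EPRS lost their calls (adjusted p = 0.122, 0.0705 and 0.0926 by edgeR) and VARS2 was not tested. YARS2 was not called with DESeq2 either (adjusted p = 0.0675). Without the block VARS2 alone was called, at an adjusted p of 0.0490 by edgeR, and with mRNA-seq reads over the whole transcript VARS2 and RARS2 were not called (adjusted p = 0.0984 and 0.456 by edgeR). The background in arsenite was 21.5% of genes called, with 8.23% higher and 13.3% lower.

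By structural class, the 11 cytosolic class II enzymes had a median TE change of −0.19, with 8 negative and 0 positive in both replicates. The share of all genes positive in both was 30.4%. The 9 cytosolic class I enzymes had a median of −0.0047, with 2 negative and 3 positive in both, and their range from −0.77 (IARS) to 0.37 (QARS) took in that of class II, from −0.55 (FARSB) to 0.06 (GARS). For occupancy the medians were −0.10 in class II and 0.16 in class I. EPRS, which holds both, was left out. Inside the multi-synthetase complex the 8 genes had a median TE change of −0.11, and outside it the 13 genes one of −0.13. The complex held both ends of the cytosolic range, IARS and QARS. These groups are described and were not tested.

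As a share of all CDS reads in the ribo-seq libraries, the cytosolic genes took 0.987% in control (95% Wilson interval 0.973 to 1.00) and 1.06% in arsenite (1.04 to 1.08) in replicate 1, and 0.892% in both treatments in replicate 2. The mitochondrial genes took 0.130% (0.125 to 0.135) and 0.169% (0.161 to 0.177) in replicate 1, and 0.124% (0.121 to 0.126) and 0.159% (0.154 to 0.163) in replicate 2. The intervals cover counting error only. The mitochondrial share was therefore 1.30 and 1.28 times that of control. Without IARS2, which was singled out after its values were seen, the ratios were 1.04 and 1.23, so that in replicate 1 most of the difference was in this 1 gene. The mRNA-seq ratios were 1.08 and 1.08 for the cytosolic class and 1.07 and 1.11 for the mitochondrial one. Without IARS2 the latter were 0.995 and 1.02. An exact test of a share cannot reach 0.05 with 2 libraries a treatment.

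Reads on the 5′ leaders were few. Their share was higher in the mitochondrial class in all 4 ribo-seq libraries, with overlapping intervals in replicate 2. In replicate 1 the mitochondrial share rested mostly on 1 gene. TARS2 held 8 of the 11 mitochondrial leader reads there in control and 11 of the 13 in arsenite. In the 21 cytosolic genes leader reads were 0.0963% of the ribo-seq reads in control (95% Wilson interval 0.0609 to 0.152) and 0.102% (0.0567 to 0.182) in arsenite in replicate 1, and 0.176% (0.146 to 0.211) and 0.360% (0.295 to 0.440) in replicate 2. In the 16 mitochondrial genes they were 0.446% (0.249 to 0.796) and 0.751% (0.439 to 1.28) in replicate 1, on 11 and 13 reads, and 0.268% (0.180 to 0.399) and 0.588% (0.407 to 0.849) in replicate 2. Over all 37 genes leader reads were 0.137% of the ribo-seq reads in control (0.0955 to 0.197) and 0.191% (0.128 to 0.284) in arsenite in replicate 1, and 0.187% (0.158 to 0.221) and 0.395% (0.331 to 0.471) in replicate 2. Over all genes of the series the shares were 0.392% and 0.490% in replicate 1 and 0.796% and 1.52% in replicate 2. The mitochondrial share thus lay above that of all genes in replicate 1, where its intervals took in the latter in control and in arsenite, and below it in replicate 2. The mRNA-seq reads of the 37 genes also held a smaller share on leaders than those of all genes, 1.70% against 4.11% in control in replicate 1 and 2.44% against 5.01% in replicate 2. Unlike in ribo-seq, the mRNA-seq share was lower in the mitochondrial than in the cytosolic class in all 4 libraries. In replicate 1 it was 0.960% against 1.85% in control and 1.23% against 2.02% in arsenite. In replicate 2 it was 2.18% against 2.50% in control and 2.01% against 2.48% in arsenite. Between the treatments, the ribo-seq share of the 37 genes differed by more than counting error in replicate 2, as did that of all genes, and in replicate 1 the intervals for the 37 genes overlapped. In 13 of the 37 genes no leader read was found in any ribo-seq library, and in 11 there were 10 or more over the 4 libraries. YARS, the tyrosyl enzyme, had the most, with 3 and 2 in replicate 1 and 30 and 28 in replicate 2 (control, then arsenite), against 9088 ribo-seq reads on its transcript. For IARS these counts were 1 and 2, then 16 and 18. TARS2 went against the depth of the libraries, with 8 and 11 leader reads in the shallow replicate 1 and 2 and 2 in replicate 2.

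The synthetases work with a set of other genes, of which 21 were listed and 20 could be tested for RNA and 19 for the other measures. For RNA 0 were called by edgeR or DESeq2, with 0 at an unadjusted p under 0.05 by edgeR as well, and the median was −0.03. The background for RNA was 5.75% of genes called. For occupancy 3 of 19 were called, all lower, against 1.35% of all genes called lower, and the median was −0.14. EEF1A1, which brings aminoacyl-tRNA to the ribosome, was at −0.81 (adjusted p = 0.0212), EEF1B2, a subunit of its exchange factor, at −0.81 (adjusted p = 0.0208), and XPOT, which exports tRNA from the nucleus, at −0.77 (adjusted p = 0.0271), all by edgeR. For TE, EEF1A1 at −0.78 (adjusted p = 0.0194) and XPOT at −0.76 (adjusted p = 0.0442) were called lower, and EEF1B2 at −0.74 missed the threshold (adjusted p = 0.0507 by edgeR). The share of all genes called lower for TE was 1.1%. None of these calls was kept without the block. XPOT lost its call for occupancy with DESeq2 (adjusted p = 0.119). For TE it lost its call with DESeq2, with upper-quartile scaling, with a mean of 50 reads and when mRNA-seq was limited to the CDS (adjusted p from 0.0502 to 0.0660), where EEF1A1 kept its own. These values are of the size of that of IARS. QRSL1, a subunit of the amidotransferase that makes glutaminyl-tRNA in mitochondria, where no glutaminyl-tRNA synthetase works, was at −0.80 for TE (adjusted p = 0.0555 by edgeR). The scaffolds of the multi-synthetase complex AIMP1 and AIMP2 were near 0, at −0.07 and 0.01, and the third, EEF1E1, was at −0.46 (adjusted p = 0.197 by edgeR). TUFM and TSFM, the mitochondrial elongation factors, were at 0.13 and 0.12 for TE, and EIF2AK4, the kinase that senses uncharged tRNA, was at −0.07. In control AIMP2 was called higher for TE at 0.92 (adjusted p = 0.0384) and EIF2AK4 lower, at −0.84 and −1.15 in the replicates (adjusted p = 0.0305), both by edgeR. The background for TE in control was 8.33% of genes called higher and 13.6% lower. The call of AIMP2 was lost when a mean of 50 reads was required (adjusted p = 0.0651 by edgeR).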

How the data were processed

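The authors trimmed adapters with Cutadapt, set aside spike-in and rRNA reads and aligned the rest to RefSeq transcripts with Bowtie 1.0.0. They discarded reads of more than 1 gene, so close paralogs such as TARS and TARSL2 are counted only where they differ. The deposited values are read counts for each of 47087 transcripts, not normalized, and in 35851 coding ones also by region (leader, CDS, 3′ UTR), with ribo-seq reads placed by the inferred A-site. Of each gene the coding transcript with the most ribo-seq CDS reads in control was used, a choice among 2 or more for 12 of the 37 genes.

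Counts were tested with edgeR 4.0.16 (R 4.3.3, limma 3.58.1; quasi-likelihood test, TMM, Benjamini-Hochberg, threshold 0.05) on all genes whose mean count was 10 or more. RNA used transcript counts, occupancy CDS counts, TE change the interaction of assay and treatment, and TE within a treatment CDS counts of both assays. The background is the percent of all genes tested that were called. For values of 1 replicate 0.5 was added to counts. The replicate was a block in each model, because the replicates had different adapters and sequencing. The deviations of libraries from their group means correlated within replicates, at 0.700 in mRNA-seq (12600 genes) and 0.684 in ribo-seq (10291 genes), which are not independent. With 2 replicates, p-values rest on the spread shared across genes, and the shallow replicate 1 bounds the precision for genes of low count.

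The rule for the genes uses symbols only, but the genes, groups and lists were taken up with earlier results of these data known, so groups are given as counts and medians with no test. The genes with full statistics are those called, and the 3 highest and 3 lowest of each class in each measure. TE in arsenite was added later, and so were the promoter search and the ratio without IARS2. Coding lengths were not used here, so levels of different genes were not compared. Alternatives were DESeq2 1.42.0, upper-quartile scaling, other filters, no replicate block, another transcript, other read regions, GARS and KARS left out, and each replicate left out. Python 3.11.15, pandas 2.3.3, numpy 2.4.6, scipy 1.17.1 and matplotlib 3.10.9 were used for summaries and figures.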

Additional observations from a re-analysis of the deposited data

How the results depend on the processing

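Without the replicate block no synthetase gene was called for RNA, occupancy or TE change (0 at an unadjusted p under 0.05 in each by edgeR), nor for TE in control (7 at an unadjusted p under 0.05). The 9 calls for RNA change became 5 with upper-quartile scaling, 3 with mRNA-seq reads on the CDS and 2 with DESeq2, which gave no adjusted p for 19 genes. The 2 calls for occupancy became 1 with the transcript chosen by mRNA-seq reads and 0 with DESeq2 (2 at an unadjusted p under 0.05, 11 with no adjusted p). The 1 call for TE change became 2 without a filter on low counts. The 5 calls for TE in control became 4 with the transcript chosen by mRNA-seq reads and 9 without the filter. They became 21 with mRNA-seq reads over the whole transcript, where lengths no longer cancel. Counts of calls could not be tested without a replicate, since no residual degrees of freedom are left.

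The cytosolic minus mitochondrial difference of medians was 0.09 for RNA change, 0.11 without the block, and 0.092 to 0.10 in single replicates. For TE change it was −0.26, and −0.29 to −0.058 in single replicates. For TE in control it was 0.32, 0.78 with mRNA-seq reads over the transcript, and 0.24 to 0.36 in single replicates. For occupancy it was 0.01, 0.064 without the block, and −0.18 to 0.054 in single replicates, turning negative without replicate 1. For TE in arsenite it was 0.23 and ran from −0.059 to 0.50, again negative without replicate 1. Leaving out GARS and KARS moved none of these by more than the spread between replicates.

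Of 372 values of single genes under tested alternatives, 41 lost a call, 7 gained one and 8 changed sign, all 8 close to 0 in the first fit or moved by the region counted. Among the values counted, the sign changed for RNA in KARS (−0.0024, upper-quartile scaling) and VARS2 (0.018, no block). For TE in control it changed in CARS (−0.024, mean of 50 counts), in QARS (0.012 with DESeq2, 0.026 without the filter, 0.74 with mRNA-seq reads over the transcript), and, with the latter, in TARSL2 (0.52) and CARS2 (0.033).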
